A study of Mus musculus with 15 samples.

Results

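Heat shock and chaperone genes encode proteins that bind unfolded or partly folded polypeptides and help them to fold, to cross membranes or to be degraded. Cytosolic members are induced by heat and other protein-damaging stress through the transcription factor Hsf1, while the chaperones of the endoplasmic reticulum (ER) are induced by the unfolded protein response. In the colon, abundant constitutive chaperones serve the rapidly renewing epithelium and its secretory cells. The 10 genes described here are Hspa1a, Hspa1b, Hsph1, Hspa8, Hspa5, Hsp90aa1, Hsp90ab1, Hspd1, Hspe1 and Dnajb1. They were chosen from earlier results on these same colons, on their library-normalised values across the 5 groups, so their differences between groups are given as a description with no test. All 10 were among the 12370 genes present in all 3 count tables, and they passed the low count filter in every table.

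RNA-seq was performed on distal colons of C57BL/6 (B6) mice, C57BL/6J in the study's methods, and of Irf1-/- mutants on the same strain background, which lack interferon regulatory factor 1 as a germline mutation in every cell type. The 15 libraries form 5 groups of 3 mice: untreated B6 control set 1, untreated B6 control set 2, untreated Irf1-/-, and B6 and Irf1-/- colons at D26 of AOM/DSS treatment. Treated mice had received the colon carcinogen azoxymethane (AOM) in 1 injection on D1 (7 mg/kg), then 2% dextran sulfate sodium (DSS, which injures the colonic epithelium) from D8 to D11. Mice of this model were 8 to 10 weeks old at injection, and the labels give no age for the untreated groups. The labels do not say how the untreated B6 sets differ beyond their number. Control set 1 was tabulated with the treated B6 colons and control set 2 with the untreated Irf1-/- colons, and they are kept apart here.

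Counted reads on genes numbered 22266607 to 22869853 per library. Levels are library-normalised counts (CPM) with TMM factors over the 15 libraries, with SD over n = 3 mice, and log2 fold changes (FC) are from edgeR with their standard error (SE). The markers of the tissue were present. The 12 epithelial markers summed to between 11550 and 17910 CPM per library, with Krt8 the most abundant, and the 8 smooth muscle markers to between 6984 and 8991 CPM, with Myh11 the most abundant. Of the 10 leukocyte markers, 6 were in all tables (Lyz2 the most abundant), and Cd3e, Cd8a, S100a8 and S100a9 were not. In whole tissue, fewer cells of a type and less RNA per cell cannot be told apart.

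Irf1 itself, the gene inactivated in the mutants, was counted in every library. It was at 161, 155 and 144 CPM in control set 1, 141, 128 and 130 CPM in control set 2, and 174, 223 and 227 CPM in treated B6 colons. In Irf1-/- colons it was at 79.4, 117 and 87.5 CPM untreated and 108, 123 and 100 CPM at D26. The highest Irf1-/- library thus lay below the lowest B6 library, whatever the treatment. A count over the whole gene does not show which exons the reads came from.

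Hspa8, the constitutive HSP70 of the cytosol, was the highest of the 10 genes at 397 CPM per kb of exon on average over the 15 libraries. Hsp90ab1, the constitutive cytosolic HSP90, followed at 225 CPM per kb, and Hspa5 (BiP, the HSP70 of the ER) at 114 CPM per kb. The mitochondrial chaperonin Hspd1 and the inducible HSP90 gene Hsp90aa1 were at 75.2 and 70.4 CPM per kb. Hspa1b and Hspa1a, the stress-inducible HSP70 pair, were at 44.9 and 36.2 CPM per kb, and Hspe1, the partner of Hspd1, at 31.9 CPM per kb. The co-chaperone Dnajb1 (HSP40), which delivers substrates to HSP70, was at 16.2 CPM per kb, and Hsph1 (HSP110), a nucleotide exchange factor of HSP70, was the lowest at 3.71 CPM per kb. Exon length here is the union over all annotated transcripts. It was 1474 bases for Hspe1 and 7266 for Hsph1, against 774 and 3802 bases in their longest protein-coding transcripts. The order of the genes can thus depend on the length used. Variation between libraries did not follow the order given. The highest library was 2.97 times the lowest for Hsph1, 2.89 times for Hspa1b, 2.86 times for Hspa1a and 2.3 times for Hspa5, against 1.4 to 1.94 times for the other 6 genes.

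**Figure D1:**
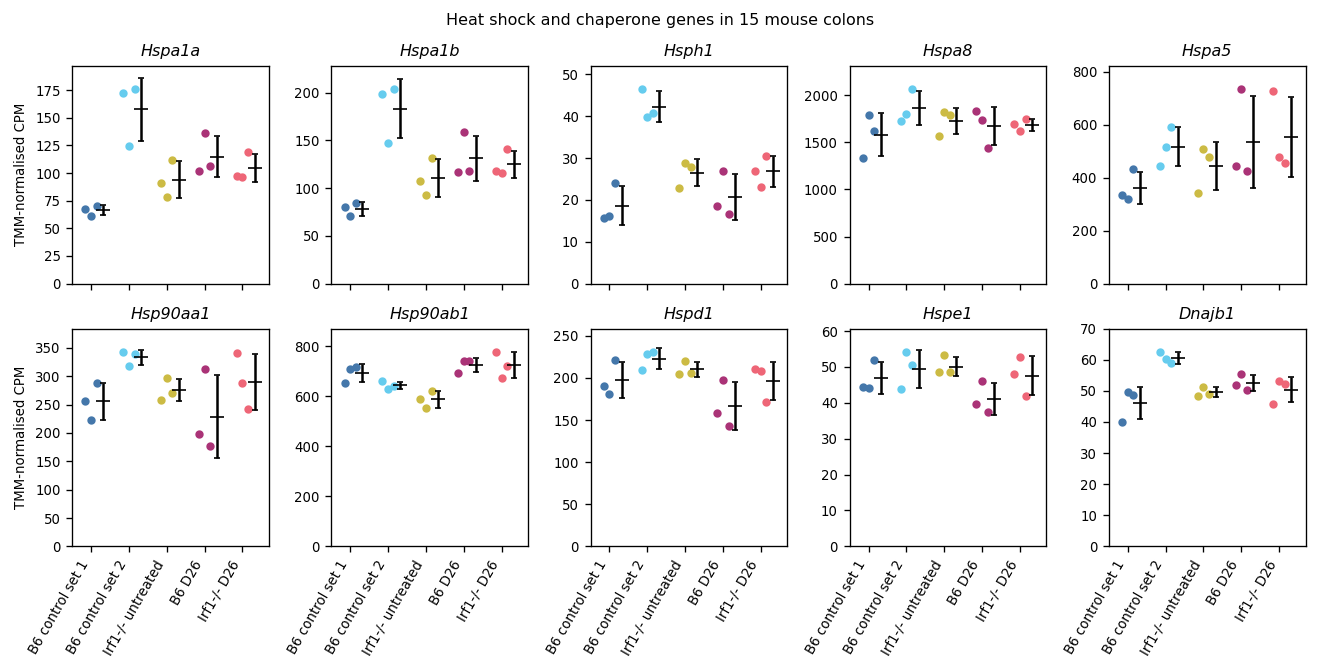
TMM-normalised CPM of each of the 10 genes (y axes from 0, a scale per gene) in the 5 groups (x axis). Points are single mice and black bars the mean ± SD of 3 mice. For Hspa1a, the libraries of control set 2 lie at 124 to 176 CPM and those of control set 1 at 61.5 to 70.2 CPM.

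The stress-inducible HSP70 genes differed most between the untreated B6 sets. Hspa1a was at 67.8, 61.5 and 70.2 CPM in control set 1 and at 172, 124 and 176 CPM in control set 2. It was at 91, 78.6 and 112 CPM in untreated Irf1-/- colons, 102, 136 and 106 CPM in treated B6 colons and 97, 96.8 and 119 CPM in treated Irf1-/- colons. The lowest group was thus control set 1 and the highest control set 2, and the 3 other groups lay between them. In the order of the group means, control set 1 did not overlap with the next group, untreated Irf1-/-, whereas each later neighbour overlapped with the one before it. Hspa1b followed the same order, at 80, 70.5 and 84.1 CPM in control set 1, 199, 148 and 204 CPM in control set 2, and 93.1 to 159 CPM in the other 9 libraries. The ratio of Hspa1a to Hspa1b was 0.825 to 0.899 over the 15 libraries (median 0.848).

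Reads of this pair are hard to tell apart. Of the 50-base windows of the longest protein-coding Hspa1a transcript, 60.3% were also found in another gene of the GENCODE M21 transcripts, 58.8% in Hspa1b, and an annotated gene on the opposite strand, Gm20481, lies over Hspa1a. The values of each are uncertain for this reason. With the reads of both summed as 1 feature, an alternative chosen after seeing the data, the log2 FC of control set 2 over control set 1 was 1.24, against 1.25 for Hspa1a alone. The same share was 73.2% for Hspa8, 58.5% for Hsp90aa1, 44.8% for Hspd1 and 36.1% for Hspe1, mostly with processed pseudogenes. It was 4.49% for Hsp90ab1, 0.407% for Dnajb1 and 0 for Hspa5 and Hsph1, so the last 3 are hardly touched by it.

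Hsph1 was at 15.6, 16.2 and 24 CPM in control set 1 and at 46.5, 39.7 and 40.8 CPM in control set 2. It was at 22.8, 28.9 and 27.8 CPM in untreated Irf1-/- colons, 18.4, 27 and 16.7 CPM in treated B6 colons and 26.9, 23 and 30.5 CPM in treated Irf1-/- colons. Control set 2 was thus above all other 12 libraries, and the other 4 groups overlapped with their neighbours in the order of means. Dnajb1 was at 62.6, 60.3 and 58.9 CPM in control set 2, also above the other 12 libraries (40.1 to 55.5 CPM). How many of all genes had control set 2 above every other library was not counted.

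Hspa5 had another pattern. It was at 334, 320 and 433 CPM in control set 1, 443, 517 and 593 CPM in control set 2 and 342, 510 and 480 CPM in untreated Irf1-/- colons. In treated colons, 1 mouse of each genotype stood above the others. Both of these mice were also low in Xist, the RNA of the inactive X chromosome, as was replicate 1 of the treated B6 mice. B6 libraries were at 445, 735 and 427 CPM and Irf1-/- libraries at 729, 479 and 455 CPM. Every neighbouring pair of groups overlapped. Hsp90b1, the HSP90 of the ER, was also highest in these libraries of its groups, at 629 CPM in the B6 and 851 CPM in the Irf1-/- colon.

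The remaining 5 genes are given by their ranges. Hspa8 ranged from 1333 to 2065 CPM, with the group means between 1580 and 1866 CPM and every neighbouring pair of groups overlapping. Hsp90ab1 ranged from 555 to 778 CPM, with untreated Irf1-/- colons the lowest group (591, 555 and 620 CPM) and not overlapping with control set 2 (660, 632 and 640 CPM). Hsp90aa1 ranged from 177 to 343 CPM and was lowest in treated B6 colons, at 197, 312 and 177 CPM. Hspd1 ranged from 143 to 231 CPM and Hspe1 from 37.4 to 54.2 CPM, both with their lowest group mean in treated B6 colons (166 ± 28.2 and 41 ± 4.55 CPM). All neighbouring groups of these 3 genes overlapped.

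The untreated B6 sets were compared first, since the contrasts with untreated B6 colons rest on 1 of them. Hspa1a had a log2 FC of 1.25 (SE 0.125) in control set 2 over control set 1, Hspa1b of 1.23 (SE 0.123) and Hsph1 of 1.19 (SE 0.153), about 2.28 to 2.37 times higher. Hspa5 (0.52), Dnajb1 (0.39) and Hsp90aa1 (0.38) were also higher, and Hspa8 (0.24), Hspd1 (0.18), Hspe1 (0.08) and Hsp90ab1 (-0.11) lay closer to 0. The groups did not overlap for 6 of the 10 genes, all higher in control set 2, against 21.4% of all 12417 genes. Called genes (Benjamini-Hochberg adjusted p below 0.01 by edgeR's quasi-likelihood test, and an FC of 1.5 or more) numbered 8 over all genes, or 0.0644%. No call is given for the 10 genes here or below.

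Among 96 other genes of 8 chaperone families, 90 were tested and 0 were called between the control sets by edgeR's quasi-likelihood test, and 3 by DESeq2 (Fkbp5, Hspa1l and Pdia6). At an unadjusted p under 0.05 there were 25 higher and 2 lower in control set 2, against 17.2% of all genes in either direction. Higher genes were 11 of the 24 ER chaperone and unfolded protein response genes (median log2 FC 0.23) and 7 of the 12 HSP90 co-chaperones (median 0.25), while 0 of the 12 chaperonin and prefoldin genes and 0 of the 9 mitochondrial chaperones reached it. The median log2 FC over all genes was 0.00. The 4 genes with the smallest p, which were not called, were Hspa1l, an HSP70 next to Hspa1a in the genome (log2 FC 0.75, adjusted p = 0.0628), the ER disulfide isomerase Pdia6 (0.61, 0.0782), the J-domain co-chaperone Dnajb2 (0.39, 0.0782) and the HSP110 relative Hspa4l (0.36, 0.0782), by edgeR's quasi-likelihood test. Hspa1l was at 8.67, 8.02 and 7.94 CPM in control set 1 and 14, 11 and 16.3 CPM in control set 2.

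Values of circadian clock genes are set beside these. Of 11 tested clock genes, 1 was called by edgeR's quasi-likelihood test, and 3 were higher and 6 lower in control set 2 at an unadjusted p under 0.05, against 17.2% of all genes. The summed level of the list was 759, 1057 and 976 CPM in control set 1 and 651, 625 and 747 CPM in control set 2. Clock was its most abundant gene. Dbp, a clock output gene, was at 27.6, 78.5 and 62.6 CPM in control set 1 and at 2.92, 6.71 and 18.2 CPM in control set 2, and Per3 was the called gene (log2 FC -1.27). In treated B6 colons Dbp was at 8.21, 7.04 and 44.5 CPM, and in Irf1-/- colons it was at 17.9 to 53.5 CPM. Immediate early genes, which respond within minutes to handling, summed to 335, 399 and 454 CPM in control set 1 and 484, 303 and 360 CPM in control set 2, with Junb the most abundant. The glia and neuron list, with 2 of 6 genes in all tables and Uchl1 the most abundant, summed to 23.2, 27.8 and 20.7 CPM in control set 1 and 16.6, 12.4 and 18 CPM in control set 2, and both genes were lower at an unadjusted p under 0.05. The 6 leukocyte markers had 0 positive log2 FC (median -0.41) and 1 lower at that p. The fibroblast and endothelium list had 0 of 7 positive (median -0.09), and the smooth muscle list had 1 of 8 positive (median -0.09), with 4 of the 8 wholly lower in control set 2. Whether any of these lists accounts for the chaperone difference between the sets was not tested.

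Untreated Irf1-/- and B6 colons were compared to see the state without Irf1 before treatment. The direction of the inducible chaperones depended on the B6 set. Relative to control set 2, Hspa1a was lower in Irf1-/- colons (log2 FC -0.75, SE 0.149), as were Hspa1b (-0.73, SE 0.144), Hsph1 (-0.68, SE 0.102) and Dnajb1 (-0.29, SE 0.0602). Relative to control set 1, the same genes were higher, at 0.49 (SE 0.112), 0.50 (SE 0.115), 0.51 (SE 0.16) and 0.10 (SE 0.0856). The sign changed for 8 of the 10 genes, all but Hsp90ab1 (-0.13 and -0.24) and Hspe1 (0.02 and 0.10). With equal weight on both sets, chosen after seeing the data, Hspa1a was at -0.13 (SE 0.132) and Hsph1 at -0.08 (SE 0.159).

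Over all 12588 genes, 0.405% were called against control set 2. The groups did not overlap for 6 of the 10, all lower in Irf1-/- colons, against 15.4% of all genes, and these counts rest on the same control mice that differed from set 1. Against control set 1, 3 of the 10 did not overlap, with Hspa1a and Hspa1b higher and Hsp90ab1 lower in Irf1-/- colons, against 25.7% of all 12370 genes. Of the 90 other chaperone genes, 0 were called by edgeR's quasi-likelihood test and 0 by DESeq2. There were 0 higher and 8 lower at an unadjusted p under 0.05 (8.89% of the 90), against 10.4% of all genes. The median log2 FC was -0.05, with 28 of 90 positive, against 50.8% of all genes. The 4 smallest p, not called, were those of Dnajb4 (log2 FC -0.22, adjusted p = 0.159) and Dnaja1 (-0.27, 0.203), both J-domain co-chaperones of HSP70, Hspa1l (-0.58, 0.224) and the HSP90 co-chaperone Chordc1 (-0.27, 0.244), by edgeR's quasi-likelihood test. With control set 1, Hspa1l was at 0.16 and Chordc1 at 0.08. Of the 90 genes, 60 were then positive (against 49.3% of all genes). At an unadjusted p under 0.05, 16 were higher and 4 lower (2550 of all 12417 genes), a reversed balance. The clock list had 5 higher and 4 lower of 11 at that p against control set 2, and the leukocyte list 3 higher and 0 lower of 6 (median 0.31). Their part in the chaperone values was not tested.

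**Figure D2:**
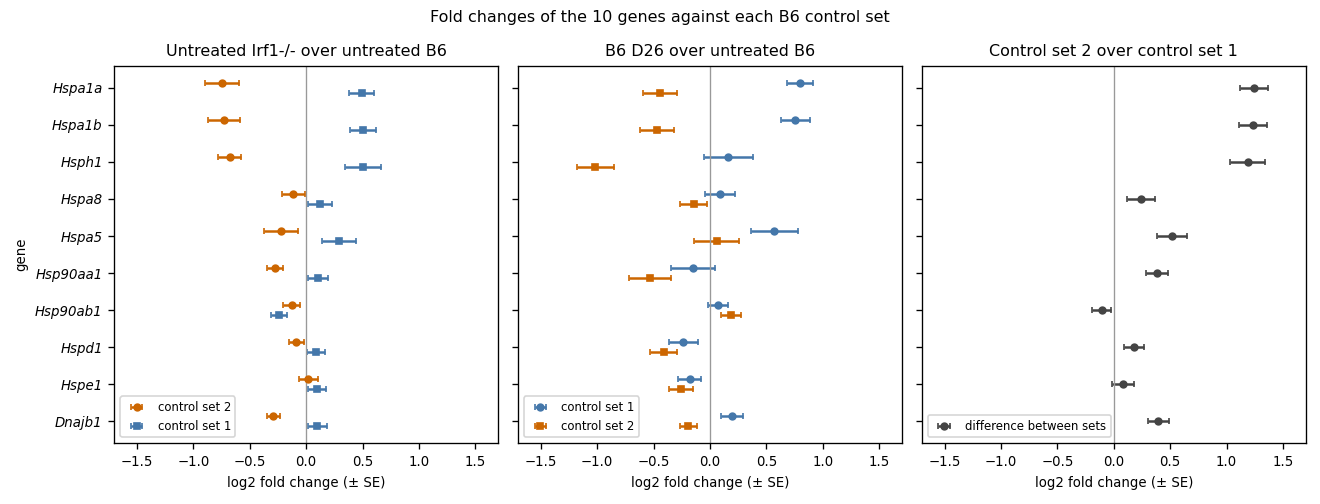
Log2 FC ± SE (x axis) of the 10 genes (y axis) in untreated Irf1-/- over untreated B6 colons (left), treated over untreated B6 colons (middle) and control set 2 over control set 1 (right), with 3 mice per group. Colours mark the B6 set used as control. Hspa1a lies at -0.75 and 0.49 on the left and at 0.79 and -0.44 in the middle.

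The response of B6 colons to AOM/DSS also depended on the set. Relative to control set 1, Hspa1a was higher at D26 (log2 FC 0.79, SE 0.117), as were Hspa1b (0.76, SE 0.129) and Hspa5 (0.57, SE 0.209), and Hsph1 was at 0.16 (SE 0.216). Without replicate 2 of the treated B6 mice, its highest library, Hspa5 was at 0.28. Relative to control set 2, Hspa1a was at -0.44 (SE 0.151), Hspa1b at -0.47 (SE 0.152), Hsph1 at -1.02 (SE 0.164) and Hspa5 at 0.06 (SE 0.199). Of the 10 genes, 5 changed sign. Hspd1 and Hspe1 were lower with either set, at -0.24 and -0.18 against set 1 and -0.41 and -0.26 against set 2. With each mouse left out, Hspd1 ranged from -0.38 to -0.14 and Hspe1 from -0.27 to -0.09 against set 1, and Hsph1 from -0.07 to 0.40. Hsp90aa1 was at -0.15 and -0.53. With each mouse left out it ranged from -0.44 to 0.0006 against set 1. The value of -0.44 was without replicate 2 of the treated B6 mice, its highest library.

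Over all 12643 genes, 0.0475% were called against control set 1. The groups did not overlap for 3 of the 10 (Hspa1a, Hspa1b and Dnajb1, all higher), against 34.5% of all genes. Against control set 2 they did not overlap for 5, with Hsph1, Hsp90aa1, Hspd1 and Dnajb1 lower and Hsp90ab1 higher, against 38.3% of all 12370 genes. Treated B6 colons thus lay wholly above control set 1 and wholly below control set 2 for Dnajb1. Treated B6 libraries also differed from the others in base composition. Their log2 deviation had a slope of 0.192, 0.138 and 0.285 per 10% GC, against -0.125 to 0.0313 in the other 12 libraries. With a correction for GC content, the log2 FC of Hspa1a was 0.61, of Hspa1b 0.58 and of Hspa5 0.68. Under it Hsp90aa1 went from -0.15 to 0.01, Hspe1 from -0.18 to -0.07, Hspd1 from -0.24 to -0.17 and Dnajb1 from 0.20 to 0.12.

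Of the 90 other chaperone genes, 0 were called in treated over untreated B6 colons by edgeR's quasi-likelihood test and 4 by DESeq2 (Ddit3, Hyou1, Manf and Vbp1). At an unadjusted p under 0.05, 21 were higher and 7 lower, against 29.5% of all genes. The balance was reversed with control set 2, at 5 higher and 15 lower, with 4157 of all 12417 genes at that p. The ER list held 14 of the 21 (of 24 tested, with 20 positive and a median of 0.28, against 51.8% positive over all genes). Summed with Hspa5, it was at 4616, 5916 and 4762 CPM in treated B6 colons and 4148, 3878 and 4698 CPM in control set 1. Replicate 2 of the treated mice was thus the highest, and replicate 1 lay within the range of control set 1. With control set 2, 3 of the 24 were higher and 1 lower at an unadjusted p under 0.05, with 18 positive and a median of 0.10, so the size of this shift also depended on the set. Other lists differed in the same colons. Against control set 1, the clock list had 3 higher and 6 lower of 11 at an unadjusted p under 0.05 (median log2 FC -0.54). The epithelial list had 3 higher and 3 lower of 12 at that p, and the glia and neuron list 0 of 2 positive (median -0.58). The epithelial list summed to 13820, 17910 and 16040 CPM in treated B6 colons and 12160 to 12860 CPM in control set 1 (11550 to 14460 CPM in control set 2). The immediate early list summed to 498, 530 and 565 CPM in treated B6 colons, above both control sets, with 6 of 10 higher at an unadjusted p under 0.05 against control set 1. The part of these lists in the ER values was not tested. The 4 smallest p, not called, were those of Ddit3 (CHOP, a transcription factor of the unfolded protein response, log2 FC 0.67, adjusted p = 0.022), Syvn1 (an ubiquitin ligase of ER-associated degradation, 0.47, 0.0228), the prefoldin subunit Vbp1 (-0.73, 0.0269) and the ER disulfide isomerase P4hb (0.44, 0.0293), by edgeR's quasi-likelihood test. Ddit3 was at 8.94, 8.5 and 9.49 CPM in control set 1, 9.55, 12.4 and 15.1 CPM in control set 2 and 14.9, 13.5 and 14.1 CPM in treated B6 colons. Vbp1 was at 29.9, 26.3 and 38.7 CPM in control set 1, 30.4, 37.4 and 34.6 CPM in control set 2 and 18, 21.1 and 17.9 CPM in treated B6 colons, below both sets. With control set 2 the log2 FC was 0.21 for Ddit3, 0.23 for Syvn1 and 0.15 for P4hb. Called with that set were Vbp1 (-0.83, adjusted p = 0.00857 by edgeR's quasi-likelihood test) and Chordc1 (-0.84, adjusted p = 0.00845), which was at -0.50 (adjusted p = 0.0523) with control set 1.

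In Irf1-/- colons D26 was compared with the untreated state, which uses no B6 control. Hsp90ab1 was higher (log2 FC 0.30, SE 0.0802) and was the 1 gene of the 10 whose groups did not overlap, against 25.1% of all genes. Hspa5 was at 0.32 (SE 0.2), Hspa1b at 0.18 (SE 0.129) and Hspa1a at 0.16 (SE 0.131), and the other 6 genes lay between -0.09 and 0.08. With each mouse left out in turn, Hspa5 ranged from 0.07 to 0.45, Hspa1b from 0.07 to 0.32 and Hspa1a from 0.04 to 0.30. Over all 12692 genes, 0.252% were called. Of the 90 other chaperone genes, 0 were called by edgeR's quasi-likelihood test or by DESeq2. There were 4 higher and 4 lower at an unadjusted p under 0.05, against 18.6% of all genes. Of the 24 ER genes, 22 were positive (median 0.13), against 51.8% of all genes. Summed with Hspa5, the ER list was at 6463, 5109 and 4670 CPM in treated and 4569, 5138 and 4860 CPM in untreated colons. Only replicate 1 of the treated mice thus lay above the untreated range. The smallest p, not called, were those of the HSP70 gene Hspa2 (0.49, adjusted p = 0.072), the ER disulfide isomerase Pdia3 (0.27, 0.124), the mitochondrial protease Clpp (-0.26, 0.136) and Syvn1 (0.23, 0.146), by edgeR's quasi-likelihood test. The summed level of the leukocyte list was 266 to 342 CPM in untreated Irf1-/- colons and 448 to 454 CPM at D26. In B6 colons it was 269 to 416 CPM in control set 1, 240 to 313 CPM in control set 2 and 375 to 535 CPM at D26, where control set 1 overlapped with the treated mice. The immediate early list was at 362 to 385 CPM in untreated and 422 to 464 CPM in treated Irf1-/- colons. The fibroblast and endothelium list had 7 of 7 positive (median 0.28) with 4 higher at an unadjusted p under 0.05, and it was highest, at 2360 CPM, in replicate 1 of the treated mice, the library with the highest Hspa5 of its group. The part of these lists in the chaperone values was not tested.

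The difference between the responses, Irf1-/- minus B6 with control set 1, was -0.63 (SE 0.194) for Hspa1a and -0.57 (SE 0.202) for Hspa1b on the log2 scale. With control set 2 it was 0.61 (SE 0.226) and 0.66 (SE 0.225), and Hsph1 went from -0.14 (SE 0.277) to 1.05 (SE 0.231). Over all 12483 genes, 0.016% were called. Of the 90 other chaperone genes, 0 were called by edgeR's quasi-likelihood test or by DESeq2, and 5 were higher and 8 lower at an unadjusted p under 0.05, against 16.9% of all genes. These counts were 11 higher and 2 lower with control set 2, with 1854 of all 12370 genes at that p. Of the 24 ER genes, 6 were positive with control set 1 (against 51.9% of all genes) and 17 with control set 2 (against 50.8% of all genes). At that p with control set 1, the clock list had 5 higher and 2 lower of 11 and the epithelial list 0 higher and 5 lower of 12, and their part was not tested. The smallest p, not called, were those of the ubiquitin ligase and HSP70 co-chaperone Stub1 (-0.37, adjusted p = 0.112), Clpp (-0.41, 0.136), the HSP70 exchange factor Bag1 (-0.36, 0.163) and the HSP90 co-chaperone Ptges3 (0.42, 0.168), by edgeR's quasi-likelihood test.

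Treated Irf1-/- and treated B6 colons were compared without either control set. Hsph1 (log2 FC 0.36, SE 0.182) and Hsp90aa1 (0.33, SE 0.21) were the farthest from 0 of the 10 genes, at 0.23 to 0.60 and 0.18 to 0.62 with each mouse left out, and Hspa1a was at -0.15 (SE 0.128). With the GC correction Hsph1 was at 0.30, Hsp90aa1 at 0.18 and Hspa1a at -0.01, and 3 of the 10 genes changed sign, among them Hspa1b from -0.09 to 0.04. The groups overlapped for all 10 genes, whereas they did not for 28.1% of all genes, and 0.385% of all genes were called. The epithelial list had 2 of 12 positive (median -0.21), with 1 higher and 6 lower at an unadjusted p under 0.05. At that p the clock list had 4 higher and 3 lower of 11, and the immediate early list 0 higher and 3 lower of 9. The part of these lists in the chaperone values was not tested. Of the 90 other chaperone genes, 0 were called by edgeR's quasi-likelihood test and 3 by DESeq2 (Chordc1, Hspa12a and Vbp1), and 7 were higher and 6 lower at an unadjusted p under 0.05, against 22% of all genes. The smallest p, not called, were those of Vbp1 (0.69, adjusted p = 0.0333), Hspa12a, a distant HSP70 relative (-0.66, 0.0397), Chordc1 (0.58, 0.054) and the ER J-domain protein Dnajb9 (0.43, 0.0954), by edgeR's quasi-likelihood test. Vbp1 was at 35, 30.2 and 27.5 CPM in treated Irf1-/- colons.

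Within groups, some of the genes varied together from mouse to mouse. Correlations over all gene pairs were not computed, so this is not shown to be particular to these genes. Differences between libraries that many genes share were not separated from it. Deviations of log2 CPM from the group mean were correlated over the 15 libraries for 8 pairs, with two-sided exact permutation over every arrangement of the mice within groups and Benjamini-Hochberg adjustment over the 8 pairs. Hspd1 and Hspe1 had a Pearson r of 0.899 (permutation p = 0.00167, adjusted p = 0.00669) and a Spearman rho of 0.925 (permutation p = 0.00129, adjusted p = 0.00514), and r was 0.894 without the 2 libraries farthest from the median of Hspd1. Hspa5 and Hsp90b1 had an r of 0.813 (permutation p = 0.00309, adjusted p = 0.00823) and a rho of 0.771 (permutation p = 0.00707, adjusted p = 0.0189). Without the 2 farthest libraries r was 0.624 (permutation p = 0.0278, adjusted p = 0.0741), which no longer passes, with fewer libraries. Hspa1a and Hspa1b share much of their transcript sequence. They had an r of 0.994 (permutation p = 0.000129, the smallest that the arrangements can give, adjusted p = 0.00103). Their rho was 0.993 (permutation p = 0.000129, adjusted p = 0.00103), and r was 0.993 without the 2 farthest. How reads that match both genes were counted is not known, and such reads may tie the counts of the pair. This r thus cannot show whether the genes themselves varied together.

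The other 5 pairs did not pass. Hsp90aa1 and Hsph1 had an r of 0.653 (permutation p = 0.0809, adjusted p = 0.162) and a rho of 0.571 (permutation p = 0.105, adjusted p = 0.21), with r 0.57 without the 2 farthest libraries. Hspa8 and Dnajb1 had an r of 0.532 (permutation p = 0.16, adjusted p = 0.214) and a rho of 0.439 (permutation p = 0.209, adjusted p = 0.312), with r 0.17 without the 2 farthest. Hspa8 and Hsph1 had an r of 0.382 (permutation p = 0.319, adjusted p = 0.364) and a rho of 0.418 (permutation p = 0.234, adjusted p = 0.312), with r 0.0986 without them. Hsph1 was also set against Fos, an immediate early gene, and against Dbp. With Fos, r was 0.444 (permutation p = 0.153, adjusted p = 0.214), rho 0.257 (permutation p = 0.445, adjusted p = 0.508) and r without the 2 farthest 0.341. With Dbp, r was -0.226 (permutation p = 0.554, adjusted p = 0.554), rho -0.182 (permutation p = 0.604, adjusted p = 0.604) and r without the 2 farthest -0.296.

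The genes outside the 10 whose log2 CPM was most like the mean of their standardised values over the 15 libraries were P4ha1 (r = 0.911), Tra2a (0.837), Golph3 (0.831), Ruvbl1 (0.825), Stip1 (0.815) and Golt1b (0.814). P4ha1 is a subunit of the ER enzyme that hydroxylates collagen, and Stip1 (HOP) is the co-chaperone that links HSP70 to HSP90. These r are a description over libraries that include the group differences. For deviations from the group means, the r of these genes with the mean of the 10 were 0.711 (Golph3) to 0.877 (Tra2a).

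Promoter sequences of 7 of the 10 genes were matched by symbol in RefSeq (GRCm38.p6, 250 bases before to 50 bases after the start of a transcript). The symbols of Hspa8, Hsp90aa1 and Hsp90ab1 were not found in the promoter set used. Pairs of inverted nGAAn units form the heat shock element that Hsf1 binds, and both arrangements of a pair, GAANNTTC and TTCNNGAA, were searched (each reads the same on both strands). GAANNTTC was in 7.86% and TTCNNGAA in 8.52% of all 32851 windows, and either was in 15.1%. Of the 7 genes, 5 held either (Hspa1a, Hspa1b, Hsph1, Hspd1 and Hspe1), and of the 80 other chaperone genes with a window, 18 did. The upstream stretches that hold them are shown because these genes include those that differed most between the control sets, with the motif in capitals.
Hspa1a, chr17:34972233-34972280, minus strand, 124 to 77 bases before the start: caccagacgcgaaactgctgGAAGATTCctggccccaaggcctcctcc
Hspa1b, chr17:34959315-34959362, minus strand, 124 to 77 bases before the start: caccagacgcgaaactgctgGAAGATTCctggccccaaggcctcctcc
Hsph1, chr5:149636351-149636380, minus strand, 44 to 15 bases before the start: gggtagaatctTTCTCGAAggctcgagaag
Hspe1, chr1:55088053-55088082, plus strand, 95 to 66 bases before the start: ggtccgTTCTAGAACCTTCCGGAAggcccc
The Hspa1a and Hspa1b stretches were identical, and their whole 300-base windows differed at 4 bases (98.7% identical). The Hspe1 stretch, where TTCNNGAA, GAANNTTC and TTCNNGAA overlap, is also 150 to 121 bases before a start of Hspd1, which is read from the opposite strand. The window of another Hspd1 start held neither arrangement. The part of the shared stretch in the values of the pair was not tested. GENCODE places a first exon of an Hspd1 transcript over the stretch of this pair and first exons of Hsph1 transcripts over the Hsph1 stretch.

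Hspa5 held neither arrangement. Its window held the ER stress response element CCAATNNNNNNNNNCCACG, which 0.119% of all windows hold on either strand, as did 7 of the 80 other chaperone genes with a window. GENCODE places a first exon of Hspa5 over it. CCAAT alone was in 37.4% and CCACG alone in 32.8% of windows. The element is shown with its conserved ends in capitals.
Hspa5, chr2:34772020-34772048, plus strand, 70 to 42 bases before the start: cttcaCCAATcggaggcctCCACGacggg
A match is a description of the letters only, and Dnajb1, which held neither heat shock arrangement in its windows, was among the genes above all other libraries in control set 2.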

How the data were processed

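RNA-seq was performed on 15 distal colons from stranded, rRNA-depleted libraries read as 50 bp pairs. The submitters' processing notes name TopHat2 2.0.9, Bowtie 1.0.0, featureCounts, edgeR and the mm9 build, without stating their order. The counts were deposited by the authors as read counts per gene, not normalized, in 3 tables of genes with at least 5 CPM in 3 or more libraries. Deposited fold changes, p-values and CPM were not used here. Untreated Irf1-/- counts were identical in both of their tables.

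Counts were scaled by TMM and fitted with the quasi-likelihood test of edgeR 4.0.16 (R 4.3.3), with Benjamini-Hochberg adjustment over all genes and a call needed an adjusted p below 0.01 and an FC of 1.5 or more. The comparisons of the treated genotypes, of the control sets and of the responses joined tables by gene. Alternatives were RLE size factors, DESeq2 1.42.0, a replicate block, genes of at least 10 CPM in 3 libraries, all 15 libraries in 1 fit, an adjusted p under 0.05, each mouse left out, a lowess correction on GC content (span 0.3), and the other B6 set. Both B6 sets together and the summed HSP70 pair were added after seeing the data. The scripts were tested on simulated data. Log2 CPM used a prior count of 2. GC content, exon length and transcripts came from GENCODE M21, and promoters from RefSeq. Tables and figures were made with matplotlib 3.10.9, scipy 1.17.1, pandas 2.3.3 and numpy 2.4.6 in Python 3.11.15.

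The members and lists were chosen with earlier results of these data known. Genes named were the 10 members, of the other chaperone genes the called ones or, where fewer than 4 were called, the 4 with the smallest p in each comparison, Irf1, the most abundant gene of each context list, and the 6 genes most like the members. Hsp90b1, Fos and Dbp were named as partners in the correlated pairs. Per3, Gm20481, Fkbp5, Hyou1, Manf, Hspb1, Hsf1, Xist, Cd3e, Cd8a, S100a8 and S100a9 were named after their values were seen.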

Additional observations from a re-analysis of the deposited data

Results flagged for a closer look

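For 2 other chaperone genes, the treated libraries lay on opposite sides of their untreated mean in B6 (control set 1) and Irf1-/- colons. The share of all genes that did so was not computed, so this count is no result about chaperone genes. Stub1 was at 38.3, 34.5 and 34.8 CPM in treated B6 colons, each above the mean of control set 1 (31.4 ± 0.509 CPM, SD, n = 3), and at 30.6, 33.1 and 32.1 CPM in treated Irf1-/- colons, each below the mean of untreated Irf1-/- colons (36.1 ± 1.38 CPM). The difference between the responses was -0.37 on the log2 scale (adjusted p = 0.112 by edgeR's quasi-likelihood test), which is no call. With control set 2 the response of B6 colons went from 0.20 to 0.09 and the difference to -0.25.

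Ptges3 was at 77.3, 107 and 87.9 CPM in treated B6 colons, each below the mean of control set 1 (112 ± 7.4 CPM), and at 121, 119 and 110 CPM in treated Irf1-/- colons, each above the mean of untreated ones (108 ± 3.05 CPM). Treated and untreated values of Ptges3 overlapped in both genotypes. The difference between the responses was 0.42 (adjusted p = 0.168 by edgeR's quasi-likelihood test), which is no call. With control set 2 the difference was 0.41.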

How the results depend on the processing

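The choice of B6 control set moved the chaperone values more than any other alternative. Of 60 log2 FC of the 10 genes with the other or both B6 sets, 39 moved by more than 1 SD between mice, against 3 of 786 under the other alternatives. These 3 were Hsp90aa1 without replicate 2 of the treated B6 mice, at -0.44 in treated B6 colons, 0.53 for the difference and 0.62 between treated genotypes. Of 360 values of the named other genes, 342 kept their direction and side of the threshold and 16 passed it. Hspa1l (0.16) and Chordc1 (0.0825) changed sign in untreated Irf1-/- colons with control set 1. Without each mouse in turn, the log2 FC between the control sets stayed at 1.16 to 1.39 for Hspa1a, 1.15 to 1.37 for Hspa1b and 1.08 to 1.42 for Hsph1. The cause was not tested.

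Genes called in untreated Irf1-/- colons (51) were 93 at an adjusted p under 0.05, 107 with DESeq2 and 137 with control set 1. In treated B6 colons (6) they were 430 at an adjusted p under 0.05, 441 with DESeq2, 29 at 10 CPM, 297 with all 15 libraries, 0 with the GC correction (2258 at an unadjusted p under 0.05), 71 with control set 2 and 389 with both sets. In treated Irf1-/- colons (32) they were 169 at an adjusted p under 0.05, 221 with DESeq2 and 13 at 10 CPM. For the difference (2) they were 6 at an adjusted p under 0.05, 75 with DESeq2 and 0 with control set 2 or both sets. Between treated genotypes (48) they were 184 at an adjusted p under 0.05, 270 with DESeq2 and 240 with all 15 libraries. Between the control sets (8) they were 51 at an adjusted p under 0.05 and 144 with DESeq2. The cause was not tested. Without each mouse in turn, the counts ranged from 26 to 64, 0 to 152, 0 to 61, 1 to 9, 17 to 48 and 3 to 53, in that order of comparisons. RLE size factors left every count within 1.5 times.

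Other chaperone genes called (0 in each comparison) were 3 in treated B6 colons at an adjusted p under 0.05, 4 with DESeq2, 1 with all 15 libraries and 2 with control set 2 or both sets. Between treated genotypes they were 2 at an adjusted p under 0.05, 3 with DESeq2 and 2 with all 15 libraries, and between the control sets 3 with DESeq2. Without each mouse they were 0 throughout.

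Same-numbered mice did not deviate together on average over all genes (mean r -0.126 to 0.0757, single pairs -0.25 to 0.248). These r cannot exclude that the numbers pair the mice, and the main fits used no pairing. With a replicate block the called genes were 44, 5, 48, 2, 7 and 13. The correlation of Hspa5 and Hsp90b1 was 0.624 without the 2 farthest libraries. With 3 mice per group, small differences between chaperones may have gone unresolved.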

Other observations

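Xist, the RNA of the inactive X chromosome, was at 25.2 and 5.97 CPM in replicates 1 and 2 of the treated B6 mice, 11.6 CPM in replicate 1 of the treated Irf1-/- mice and 321 CPM in replicate 2 of control set 1, against 888 to 3729 CPM in the other 11 libraries. All of the low libraries but that of control set 1 were from treated mice. The study's methods state no sex for these mice, so sex and treatment were not separated in the comparisons above. Xist was named after its values were seen, and its part in the chaperone values was not tested. Hspa5 was at 445, 735, 729 and 320 CPM in these 4 libraries, in that order.

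Small heat shock proteins, which hold unfolded proteins without ATP, summed to 140, 137 and 130 CPM in control set 1 and 169, 156 and 188 CPM in control set 2 (5 of 7 in all tables). Hspb1 was the most abundant, with a log2 FC of 0.58 between the sets (adjusted p = 0.106 by edgeR's quasi-likelihood test). The 3 regulators of the heat shock response in all tables summed to 82.5 to 94.3 CPM over the 15 libraries, with Hsbp1 the most abundant, and Hsf1 had a log2 FC of 0.04 between the sets (adjusted p = 0.893 by edgeR's quasi-likelihood test). The chaperonin and prefoldin list summed to 1242 to 1482 CPM, with Cct2 the most abundant. The fibroblast and endothelium list summed to 1408 to 2360 CPM with Col1a2 the most abundant.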
